A study of Mus musculus with 12 samples.

Results

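A list of 32 mouse genes of glycolysis and the response to low oxygen was followed through 3 transfections of B16-F10 cells, an established pigmented mouse melanoma line. It holds 16 glycolytic enzymes and 16 targets of the hypoxia-inducible factors (HIFs), with Hif1a itself among them. Members were found by their symbol in the platform's annotation, and the brightest probe set of each was taken. This gave 28 measured and tested members, 13 enzymes and 15 of the HIF group, among 10916 tested genes of 18193 with a probe set. All 28 were bright enough for the test, since only the dimmest 40% of genes, by mean over all arrays, were left out.

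No probe set carried the symbol of Gpi1, Eno1 or Bnip3l alone, and these 3 are not analysed here. Gapdh was read only by the array's control probe sets, which took no part in the test. Their levels were not quantile normalized. The 3′ one of these had mean levels of 14.96 ± 0.55 with FoxD3-VP16, 15.04 ± 0.56 with FoxD3 and 15.04 ± 0.50 with the empty vector (SD, n = 4 each). It read 15.70 to 15.87 on the arrays numbered 1, against 14.47 to 15.13 on the others. The one labelled M varied less, with 14.83 ± 0.14, 14.94 ± 0.13 and 14.92 ± 0.15 in the same order. The SDs of the 5′ one were 0.13, 0.22 and 0.16.

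Cells that run short of oxygen switch on a set of genes through HIFs, transcription factors whose alpha subunit is marked for destruction by oxygen-dependent prolyl hydroxylases and the VHL protein. Their targets include glucose transporters, most glycolytic enzymes, the angiogenic factor Vegfa and several dioxygenases that need oxygen themselves. Melanoma cells, like many tumour cells, draw much of their energy from glycolysis also in the presence of oxygen, and HIF1A is known to be active in melanocytic cells.

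The 3 groups of 4 arrays each were FoxD3-VP16, FoxD3 and the empty vector pMES. FoxD3 is a forkhead protein that acts in early neural crest cells, and the cells with FoxD3 carried the chicken protein. In FoxD3-VP16 the repressing C-terminal part is exchanged for a viral activation domain, that of VP16. All 3 plasmids use the chick beta-actin promoter, and all make EGFP from the same bicistronic transcript, so the controls also expressed EGFP. Cells were sorted for EGFP at 24 h, so the arrays describe a sorted, transiently transfected pool. The transgenes are chicken sequences, so the mouse probe sets do not check them. Whether the replicates of a group came from separate cultures is not stated in the labels, so the p-values refer to the spread between these arrays alone, and that spread may be technical. A lower level in such a pool can mean fewer cells that make the RNA or less RNA per cell, and these cannot be told apart.

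Apart from those of the control probe sets, levels are log2(intensity + 16) after quantile normalization. A difference of 1 is therefore a doubling for a bright gene and less than the true change for a dim one. Levels are compared between arrays for the same gene, not between genes. Melanocyte markers were all above the dim limit in every group, with summed levels of 17.29 to 17.43 with FoxD3-VP16, 17.26 to 17.35 with FoxD3 and 17.42 to 17.57 with the empty vector. Of 7 fibroblast markers, 3 were above the limit (Col1a1, Col1a2 and Pdgfrb), and their list summed to 9.72 to 10.17, 10.01 to 10.43 and 9.03 to 9.47 in the same order. Of the endothelial, keratinocyte and erythroid markers 0 were above it, and of 5 leukocyte markers 1 was. The arrays numbered 1 stood apart in all 3 groups: their Gapdh 3′ minus 5′ difference, a sign of RNA quality, was 0.56 to 0.77, against -0.25 to 0.04 on the other arrays. Their 18S ribosomal signal was 12.83 to 13.07, against 9.31 to 10.10 on the others. The array's hybridization controls averaged 14.83 to 15.04 on the arrays numbered 1 and 13.21 to 13.40 on those numbered 2. On those numbered 3 and 4 they averaged 12.19 to 12.38 and 12.20 to 12.26, so number 2 also stood apart by this measure. Arrays with the same number resembled each other, although those numbered 3 and 4 resembled each other across the groups as much, so each result is given from the fit without and, where the call differs, with the replicate number as a block. A gene is called where the adjusted p of limma (Benjamini-Hochberg over all 10916 genes) is under 0.05.

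HIFs bind cores such as ACGTG. The windows from 250 bases before to 50 after each start site were searched for these letters alone, on both strands. RefSeq (mouse build GRCm38.p6) gave windows for 30 of the 32 members, 45 in all, and none was given for Ndrg1 and Bnip3l. The core stood in 23 of the 45 windows (51.1%), against 19.6% of all 32851 windows of this length. By gene it stood in 78.6% of the 14 HIF-group members and 62.5% of the 16 enzymes, against 21.8% of all 27025 genes. The palindrome CACGTG counts on both strands. Base composition, which sets how often such a core occurs, was not matched between the members and all genes. The forkhead core TGTTTA stood in 1 of the 45 windows, one of Aldoc, against 13.4% of all windows. A match describes these letters and is no evidence of binding.

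The windows of 4 members are printed 5′ to 3′ on the gene's strand, with the ACGTG core of either strand in capitals (CACGT is the core on the other strand). They show 2 members that were called between the proteins with the block and hold ACGTG (P4ha2 and Ankrd37), and 1 that was called there and has no ACGTG (Eno2). The last, Ldha, was called in no comparison and holds 5 matches, since each CACGTG is counted once on either strand. P4ha2 lies at chr11:54100674-54100973 (plus strand), Ankrd37 at chr8:45999801-46000100 (minus strand), Eno2 at chr6:124769624-124769923 (minus strand) and the first of the Ldha windows at chr7:46845554-46845853 (plus strand). In P4ha2 the cores begin 78 bases before and 11 after the start site, and in Ankrd37 241 and 6 before it.
P4ha2: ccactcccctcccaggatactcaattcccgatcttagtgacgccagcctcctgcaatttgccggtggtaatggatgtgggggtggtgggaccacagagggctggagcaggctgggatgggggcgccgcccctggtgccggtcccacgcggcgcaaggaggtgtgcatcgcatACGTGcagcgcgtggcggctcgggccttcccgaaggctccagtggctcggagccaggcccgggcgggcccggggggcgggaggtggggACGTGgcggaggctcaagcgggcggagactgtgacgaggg
Ankrd37: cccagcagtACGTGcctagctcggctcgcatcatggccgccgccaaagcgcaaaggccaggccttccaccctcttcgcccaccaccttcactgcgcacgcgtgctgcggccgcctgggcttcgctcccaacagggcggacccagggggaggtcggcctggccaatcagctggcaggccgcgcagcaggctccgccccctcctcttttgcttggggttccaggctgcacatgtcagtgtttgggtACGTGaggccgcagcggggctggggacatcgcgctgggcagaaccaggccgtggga
Eno2: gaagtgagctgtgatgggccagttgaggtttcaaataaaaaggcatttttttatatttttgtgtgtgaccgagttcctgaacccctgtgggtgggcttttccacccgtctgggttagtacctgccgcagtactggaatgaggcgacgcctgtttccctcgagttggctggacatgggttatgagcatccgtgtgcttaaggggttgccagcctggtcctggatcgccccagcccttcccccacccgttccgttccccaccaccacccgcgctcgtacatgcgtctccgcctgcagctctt
Ldha: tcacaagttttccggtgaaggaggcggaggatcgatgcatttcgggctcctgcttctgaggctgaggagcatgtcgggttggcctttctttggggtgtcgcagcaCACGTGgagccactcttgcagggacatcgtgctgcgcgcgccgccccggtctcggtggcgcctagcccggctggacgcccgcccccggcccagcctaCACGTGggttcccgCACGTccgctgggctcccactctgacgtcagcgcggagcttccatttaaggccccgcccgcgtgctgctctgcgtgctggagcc

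Among the HIF targets, Ndrg1 was higher with FoxD3 than in both other groups, and it was the one member called in 2 comparisons without a block. Ndrg1 is a cytoplasmic protein induced by hypoxia and differentiation and is known as a suppressor of metastasis. Its level on arrays 1 to 4 was 9.49, 10.33, 9.95 and 9.58 with FoxD3-VP16, 11.78, 11.74, 11.25 and 11.22 with FoxD3, and 10.09, 10.70, 9.07 and 9.78 with the empty vector. All 4 FoxD3 arrays lay above all 8 others, while the FoxD3-VP16 and empty-vector arrays overlapped. The means were 9.84 ± 0.38 with FoxD3-VP16, 11.50 ± 0.30 with FoxD3 and 9.91 ± 0.68 with the empty vector (SD, n = 4 each). Ndrg1 was 3.00-fold higher with FoxD3 than with the empty vector (log2 change 1.59, SE 0.30, adjusted p = 0.0100). FoxD3-VP16 was 3.16-fold below FoxD3 (log2 change -1.66, SE 0.30, adjusted p = 0.00398). Between FoxD3-VP16 and the empty vector the log2 change was -0.07, with a 95% interval of -0.73 to 0.58 (adjusted p = 0.983).

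The array holds 5 probe sets for Ndrg1. They gave log2 changes of 1.40 to 1.68 with FoxD3 against the empty vector and -1.85 to -1.37 with FoxD3-VP16 against FoxD3. On each of the 5, FoxD3 was the higher in all 4 same-numbered pairs, in both comparisons. The vector accounted for 77.1% of the variance of Ndrg1 over the 12 arrays and the replicate number for 13.6%.

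**Figure D1:**
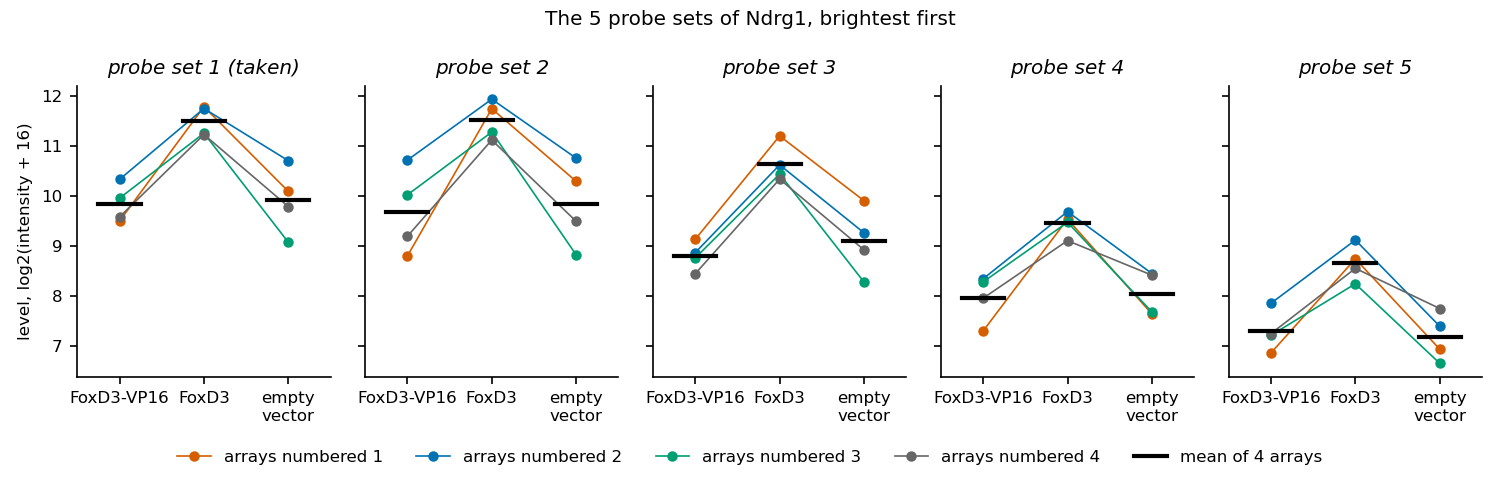
Level (log2(intensity + 16)) of the 5 probe sets of Ndrg1, brightest first, on the arrays with FoxD3-VP16, FoxD3 and the empty vector. Points are arrays, lines join arrays with the same replicate number, and black bars are means of 4 arrays. The FoxD3 mean is the highest on every probe set.

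The 2 secreted factors on the list are Vegfa, the main growth factor for blood vessels, and Adm, the precursor of the vasodilator peptide adrenomedullin. Vegfa stood at 8.53, 9.50, 8.42 and 8.24 with FoxD3-VP16, 10.40, 10.37, 9.36 and 9.59 with FoxD3, and 9.55, 9.81, 8.92 and 9.65 with the empty vector. The FoxD3-VP16 array was the lowest of its number in all 4 sets, although the groups overlap through FoxD3-VP16 array 2 and FoxD3 array 3. The means of Vegfa were 8.67 ± 0.57 with FoxD3-VP16, 9.93 ± 0.53 with FoxD3 and 9.48 ± 0.39 with the empty vector. Vegfa was 2.39-fold lower with FoxD3-VP16 than with FoxD3 (log2 change -1.26, SE 0.32, adjusted p = 0.0254). That call was lost without FoxD3-VP16 array 3 (-1.17, adjusted p = 0.0791), FoxD3-VP16 array 4 (-1.11, 0.0821), FoxD3 array 1 (-1.11, 0.0647) or FoxD3 array 2 (-1.11, 0.0667), and held in all 9 fits run with the block (adjusted p = 0.000222 with all arrays). Against the empty vector, FoxD3-VP16 gave a log2 change of -0.81 for Vegfa (SE 0.32, adjusted p = 0.373), which was called with the block (adjusted p = 0.0157) except without the arrays numbered 4 (-0.61, 0.149). With FoxD3 against the empty vector it was 0.45, with a 95% interval of -0.24 to 1.14. The second probe set of Vegfa gave 0.01 for FoxD3 against the empty vector, -0.75 for FoxD3-VP16 against the empty vector and -0.76 for FoxD3-VP16 against FoxD3.

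Adm varied widely between arrays of one vector. Its level was 7.53, 8.30, 7.36 and 7.41 with FoxD3-VP16, 10.63, 9.95, 8.50 and 8.01 with FoxD3, and 6.04, 9.51, 6.63 and 7.47 with the empty vector. FoxD3 was the highest within each number, but by very unequal steps, and the groups overlap. The log2 change with FoxD3 against the empty vector was 1.86 (SE 0.70, adjusted p = 0.187), called with the block (adjusted p = 0.0194). It was 1.01 with a block without the arrays numbered 1 (adjusted p = 0.0569) and 1.82 without those numbered 3 (0.0584). Without empty-vector array 2 it was 2.55 and was called also without a block (adjusted p = 0.0268). FoxD3-VP16 against FoxD3 gave -1.62 (SE 0.70, adjusted p = 0.179; 0.0258 with the block, 0.0571 with the block but without the arrays numbered 2). The second probe set of Adm, nearly as bright (mean 7.99 against 8.11), gave smaller changes of 0.86 and -1.23 in these comparisons. It read 7.59 on empty-vector array 1, where the probe set taken read 6.04, so the size of the change depends on the probe set.

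**Figure D2:**
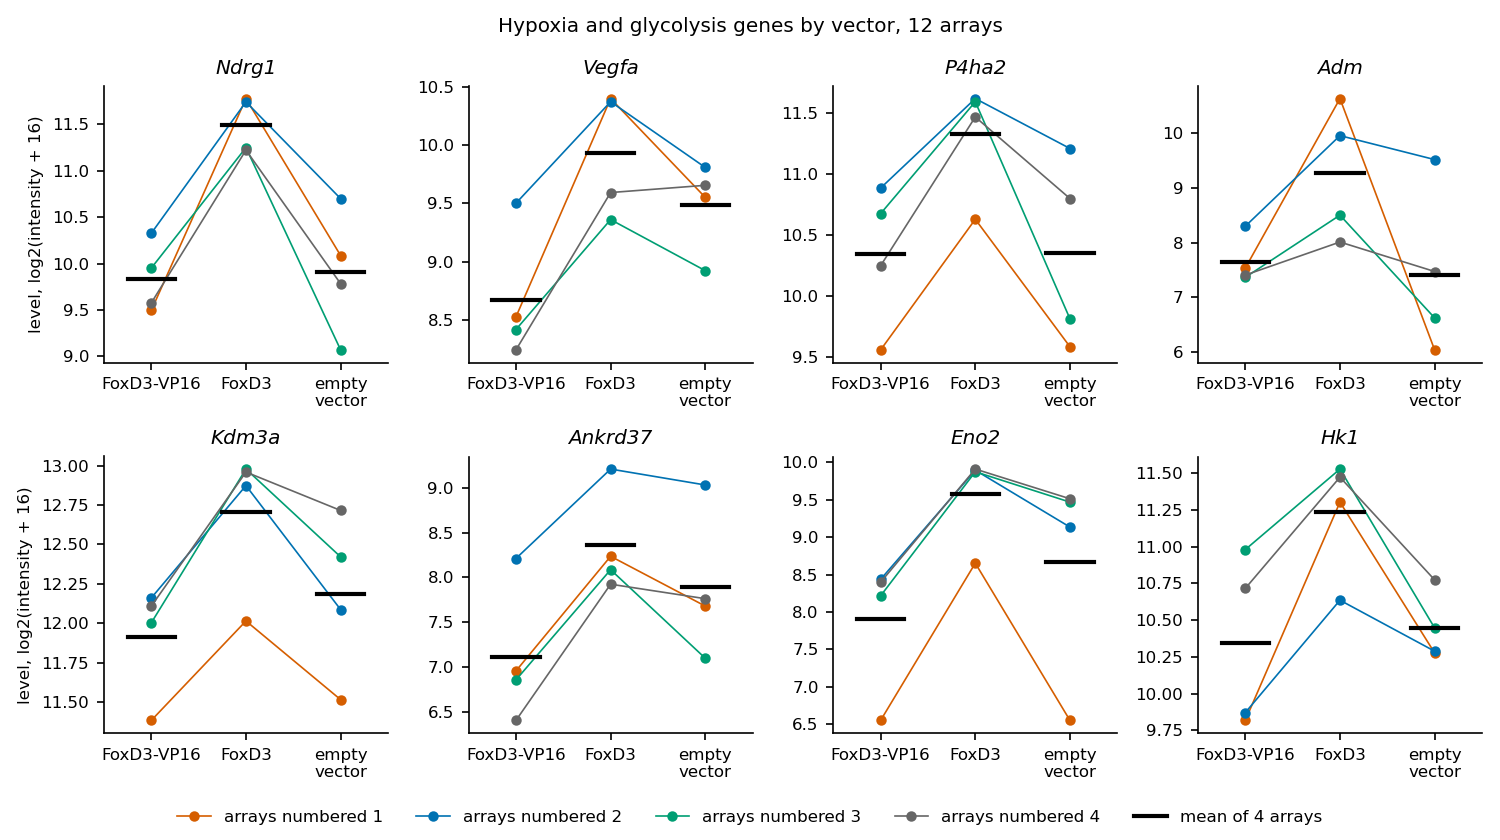
Level (log2(intensity + 16)) of 8 members on each array, with FoxD3-VP16, FoxD3 and the empty vector side by side. Points are arrays, lines join arrays with the same replicate number, and black bars are means of 4 arrays. FoxD3 has the highest mean in each of the 8 panels.

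Several HIF targets are oxygen-dependent dioxygenases. P4ha2, a catalytic subunit of the collagen prolyl 4-hydroxylase, stood at 9.55, 10.88, 10.67 and 10.25 with FoxD3-VP16, 10.63, 11.62, 11.59 and 11.47 with FoxD3, and 9.58, 11.21, 9.81 and 10.80 with the empty vector. FoxD3 was the highest within every number, and the groups overlap because array 1 was low in each. The log2 change was 0.98 with FoxD3 against the empty vector (SE 0.38, adjusted p = 0.210; 0.00297 with the block). It was -0.99 with FoxD3-VP16 against FoxD3 (SE 0.38, adjusted p = 0.134; 0.00156 with the block). Both calls held in each of the 9 fits with the block. Of the 3 fibroblast markers above the dim limit, the collagen gene Col1a1 and the receptor Pdgfrb also had higher levels with FoxD3 (log2 changes 2.68 and 1.84 against the empty vector), while the collagen gene Col1a2 gave -0.72 (adjusted p = 0.448) and was lower in 4 of 4 pairs. With FoxD3-VP16 the means of Col1a1, Pdgfrb and Col1a2 were 6.19, 9.08 and 7.905, against 5.12, 7.48 and 7.79 with the empty vector. P4ha2 gave a log2 change of -0.01 in that comparison. The empty-vector mean of Col1a1 lies below the dim limit of 5.98. The part of these markers in the P4ha2 result was not tested. P4ha1, the sister subunit of P4ha2, had log2 changes of 0.15 with FoxD3 against the empty vector and -0.21 with FoxD3-VP16 against FoxD3. The intervals were -0.51 to 0.81 and -0.87 to 0.46. The dimmer probe set of P4ha1 gave 0.425 and 0.01, with FoxD3 above the empty vector in 4 of 4 pairs.

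Kdm3a, a demethylase of lysine 9 on histone H3, had levels of 11.38, 12.16, 12.002 and 12.11 with FoxD3-VP16, 12.01, 12.87, 12.98 and 12.96 with FoxD3, and 11.51, 12.09, 12.42 and 12.72 with the empty vector. The groups overlap, and FoxD3 was the highest within all 4 numbers. With FoxD3 against the empty vector the log2 change was 0.52 (SE 0.28, adjusted p = 0.3998; 0.00265 with the block). With FoxD3-VP16 against FoxD3 it was -0.79 (SE 0.28, adjusted p = 0.101; 7.12e-05 with the block). Both calls held in each of the 9 fits with the block.

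The prolyl hydroxylases that mark the HIF alpha subunit are Egln1 and Egln3. Egln3, a dim gene, stood at 6.45, 7.59, 7.62 and 6.94 with FoxD3-VP16, 6.31, 7.31, 7.19 and 7.23 with FoxD3, and 5.34, 7.06, 5.80 and 6.52 with the empty vector. Its means were 7.15 ± 0.56 with FoxD3-VP16, 7.01 ± 0.47 with FoxD3 and 6.18 ± 0.76 with the empty vector. It was the one member called higher with both proteins in the blocked fit, in 4 of 4 pairs each, and these 2 comparisons share the empty-vector arrays. The log2 changes were 0.97 with FoxD3-VP16 (SE 0.41, adjusted p = 0.418; 0.0399 with the block) and 0.83 with FoxD3 (SE 0.41, adjusted p = 0.352; 0.0491 with the block). Both calls were lost when the arrays of any one number were left out of the blocked fit (adjusted p of 0.0522 to 0.323 and 0.0665 to 0.250). They were also lost with no filter (0.0850 and 0.106) and, with FoxD3, at a pseudocount of 1 (0.0506), so that 4 and 3 of the 9 fits with the block called them. Egln1 had log2 changes of 0.22 with FoxD3-VP16 and 0.40 with FoxD3 against the empty vector, both resting on the pair numbered 3, where they were 1.45 and 1.33, against -0.25 to 0.23 in the other pairs.

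Ankrd37, a small ankyrin-repeat protein, was low with FoxD3-VP16. Its level was 6.95, 8.21, 6.85 and 6.40 with FoxD3-VP16, 8.24, 9.21, 8.09 and 7.92 with FoxD3, and 7.68, 9.03, 7.10 and 7.76 with the empty vector. Array 2 was the highest in each group and makes the groups overlap, whereas within every number FoxD3-VP16 was the lowest. FoxD3-VP16 against FoxD3 gave a log2 change of -1.26 (SE 0.46, adjusted p = 0.111; 0.000451 with the block, called in all 9 fits with it). Without FoxD3-VP16 array 2 the change was -1.62 and was called also without a block (adjusted p = 0.0437). FoxD3-VP16 against the empty vector gave -0.79 (SE 0.46, adjusted p = 0.639; 0.0269 with the block), a call that was lost without the arrays numbered 2, 3 or 4 (adjusted p = 0.0952, 0.0517 and 0.233), on the values as deposited (0.0508) and with no filter on dim genes (0.0592), and so held in 4 of the 9 fits with the block.

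At the mitochondria, Higd1a, a small inner-membrane protein, had levels of 11.41, 13.10, 13.25 and 12.88 with FoxD3-VP16, 12.55, 13.27, 13.51 and 13.31 with FoxD3, and 11.50, 13.30, 12.56 and 13.32 with the empty vector. The groups overlap, with array 1 low in each. FoxD3-VP16 against FoxD3 gave a log2 change of -0.50 (SE 0.44, adjusted p = 0.578; 0.0481 with the block). The blocked call was lost without the arrays numbered 1 (-0.27, 0.262) or 4 (-0.54, 0.0849), at a pseudocount of 1 (0.0543) and with no filter (0.0607), and so held in 5 of 9 blocked fits. Its 2 dimmer probe sets gave larger changes, 1.77 and 0.84 with FoxD3 against the empty vector and -2.20 and -1.07 with FoxD3-VP16 against FoxD3. With the mean of its 3 probe sets, Higd1a was called without a block in both comparisons (log2 changes 1.03 and -1.26, adjusted p = 0.0232 and 0.00357), so its result depends on the probe set.

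Bnip3, a receptor for the removal of mitochondria, averaged 13.28 ± 0.66 with FoxD3-VP16, 13.54 ± 0.49 with FoxD3 and 13.19 ± 0.66 with the empty vector (SD, n = 4 each). Pdk1, the kinase that shuts off pyruvate dehydrogenase, averaged 10.16 ± 1.02, 9.83 ± 0.86 and 9.77 ± 1.28 in that order. Slc2a1, the glucose transporter GLUT1, averaged 11.08 ± 0.58, 11.16 ± 0.49 and 10.87 ± 0.61, and Car9, a surface carbonic anhydrase, 9.56 ± 1.38, 9.89 ± 1.16 and 9.34 ± 1.25. None of these 4 classical targets was called in any of the 3 comparisons by either fit. Their 95% intervals for FoxD3 against the empty vector were -0.44 to 1.15 for Bnip3, -1.32 to 1.44 for Pdk1, -0.46 to 1.05 for Slc2a1 and -1.08 to 2.18 for Car9, so a change as large as that of Ndrg1 lay inside the interval of Car9 and outside the other 3.

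Hif1a, the oxygen-regulated subunit itself, was high on the arrays where most members were low. It stood at 13.80, 12.87, 13.12 and 12.85 with FoxD3-VP16, 13.73, 12.72, 12.68 and 12.85 with FoxD3, and 14.00, 13.17, 13.02 and 12.93 with the empty vector. Array 1 was the highest in every group, and the groups overlap, while within each number FoxD3 was below the empty vector. The means were 13.16 ± 0.44 with FoxD3-VP16, 12.996 ± 0.49 with FoxD3 and 13.28 ± 0.49 with the empty vector. The log2 change with FoxD3 against the empty vector was -0.28 (SE 0.29, adjusted p = 0.739; 0.0226 with the block). The blocked call was lost without the arrays numbered 1 (adjusted p = 0.0664) or 2 (0.110) and with the mean of all probe sets (0.0546). The other probe sets of Hif1a gave 0.15, -0.10 and -0.94 for the same comparison, so they do not share a direction.

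Of the glycolytic enzymes, 0 of 13 were called in any comparison by limma without the block. At an unadjusted p under 0.05, 1 was higher with FoxD3 than with the empty vector, 2 were lower with FoxD3-VP16 than with FoxD3, and 0 differed between FoxD3-VP16 and the empty vector. Of all tested genes 9.39% were higher and 6.75% lower in the first of these comparisons at that threshold, 10.5% higher and 12.6% lower in the second, and 5.51% higher and 4.84% lower in the last. With the block, Hk1, Tpi1 and Eno2 rose with FoxD3 against the empty vector, where 11.8% of all genes were higher and 9.21% lower. Hk1, Hk2 and Eno2 were lower with FoxD3-VP16 than with FoxD3 in that fit, where 14.6% of all genes were higher and 17.5% lower. Between FoxD3-VP16 and the empty vector the blocked fit called 0 enzymes.

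The hexokinases Hk1 and Hk2 catalyse the entry step of glycolysis. Hk1 stood at 9.82, 9.87, 10.98 and 10.72 with FoxD3-VP16, 11.30, 10.64, 11.53 and 11.47 with FoxD3, and 10.28, 10.29, 10.45 and 10.77 with the empty vector. FoxD3 was the highest within all 4 numbers, with some overlap between groups. The log2 change was 0.79 with FoxD3 against the empty vector (SE 0.28, adjusted p = 0.153; 0.00370 with the block) and -0.89 with FoxD3-VP16 against FoxD3 (SE 0.28, adjusted p = 0.0625; 0.000945 with the block). The change between the proteins passed without a block when FoxD3-VP16 array 3 (-1.10, adjusted p = 0.0332) or FoxD3 array 2 (-1.09, 0.0293) was left out. The dimmer probe set of Hk1 gave 0.25 and -0.49. With the mean of both, the blocked call against the empty vector was lost (adjusted p = 0.0680).

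Hk2, the hexokinase most often linked to hypoxia and tumours, averaged 11.53 ± 0.25 with FoxD3-VP16, 11.86 ± 0.22 with FoxD3 and 11.83 ± 0.30 with the empty vector. On arrays 1 to 4 it stood at 11.42, 11.80, 11.66 and 11.25, at 11.83, 12.18, 11.74 and 11.69, and at 11.88, 12.11, 11.41 and 11.91 in that order. The groups overlap, and FoxD3-VP16 was below FoxD3 within every number. That log2 change was -0.33 (SE 0.18, adjusted p = 0.307; 0.0454 with the block), and the blocked call was lost without the arrays numbered 1, 2 or 4 (adjusted p of 0.136 to 0.145), with the mean of all probe sets (0.0575) and with no filter (0.0589), and so held in 4 of 9 blocked fits. With FoxD3 against the empty vector the change was 0.03 (95% interval -0.35 to 0.42).

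Eno2, the neuronal form of enolase, stood at 6.55, 8.44, 8.22 and 8.40 with FoxD3-VP16, 8.65, 9.90, 9.87 and 9.91 with FoxD3, and 6.55, 9.14, 9.47 and 9.51 with the empty vector. All FoxD3 arrays lay above all FoxD3-VP16 arrays, and array 1 was far below the other 3 in each group. FoxD3-VP16 against FoxD3 gave a log2 change of -1.68 (SE 0.62, adjusted p = 0.117; 0.000155 with the block, called in all 9 fits with it). FoxD3 against the empty vector gave 0.92 (SE 0.62, adjusted p = 0.546; 0.0146 with the block), and 0.52 without the arrays numbered 1 (0.0252 with the block). FoxD3-VP16 against the empty vector gave -0.77 (adjusted p = 0.796; 0.0527 with the block). Without the arrays numbered 1 that change was -1.04 and was called without a block (adjusted p = 0.00665).

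Tpi1, triosephosphate isomerase, stood at 13.92, 14.89, 15.002 and 14.64 with FoxD3-VP16, 14.17, 14.87, 14.85 and 14.84 with FoxD3, and 13.75, 14.70, 14.15 and 14.57 with the empty vector. The groups overlap, and the empty vector was the lowest within all 4 numbers. FoxD3 against the empty vector gave 0.39 (SE 0.26, adjusted p = 0.538; 0.0147 with the block). The blocked call was lost without the arrays numbered 1 (0.0595) and with the mean of all probe sets (0.0504).

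The remaining 9 enzymes were called by neither fit in any of the 3 comparisons. Pgk1, phosphoglycerate kinase, averaged 14.90 ± 0.16 with FoxD3-VP16, 14.96 ± 0.20 with FoxD3 and 14.96 ± 0.22 with the empty vector. Ldha, which turns pyruvate into lactate, averaged 14.45 ± 0.18, 14.56 ± 0.12 and 14.35 ± 0.27 in that order. For FoxD3 against the empty vector the intervals were narrow, -0.30 to 0.30 for Pgk1, -0.09 to 0.52 for Ldha, -0.12 to 0.38 for the mutase Pgam1 and -0.21 to 0.38 for the pyruvate kinase Pkm. The phosphofructokinases Pfkl, Pfkm and Pfkp had log2 changes of 0.21, 0.21 and -0.01 in that comparison, and the aldolases Aldoa and Aldoc 0.08 and 0.61. On the probe set taken, Aldoc had an interval of -0.65 to 1.86 and rested on the pair numbered 3 (1.73, against 0.09 to 0.41 in the other pairs). The second probe set of Aldoc, far dimmer (mean 6.47 against 10.73), gave 1.08, and FoxD3 was the higher in 4 of 4 pairs on both. For FoxD3-VP16 against FoxD3 it gave -1.03, against -0.20 on the probe set taken, so the size of the change depends on the probe set.

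**Figure D3:**
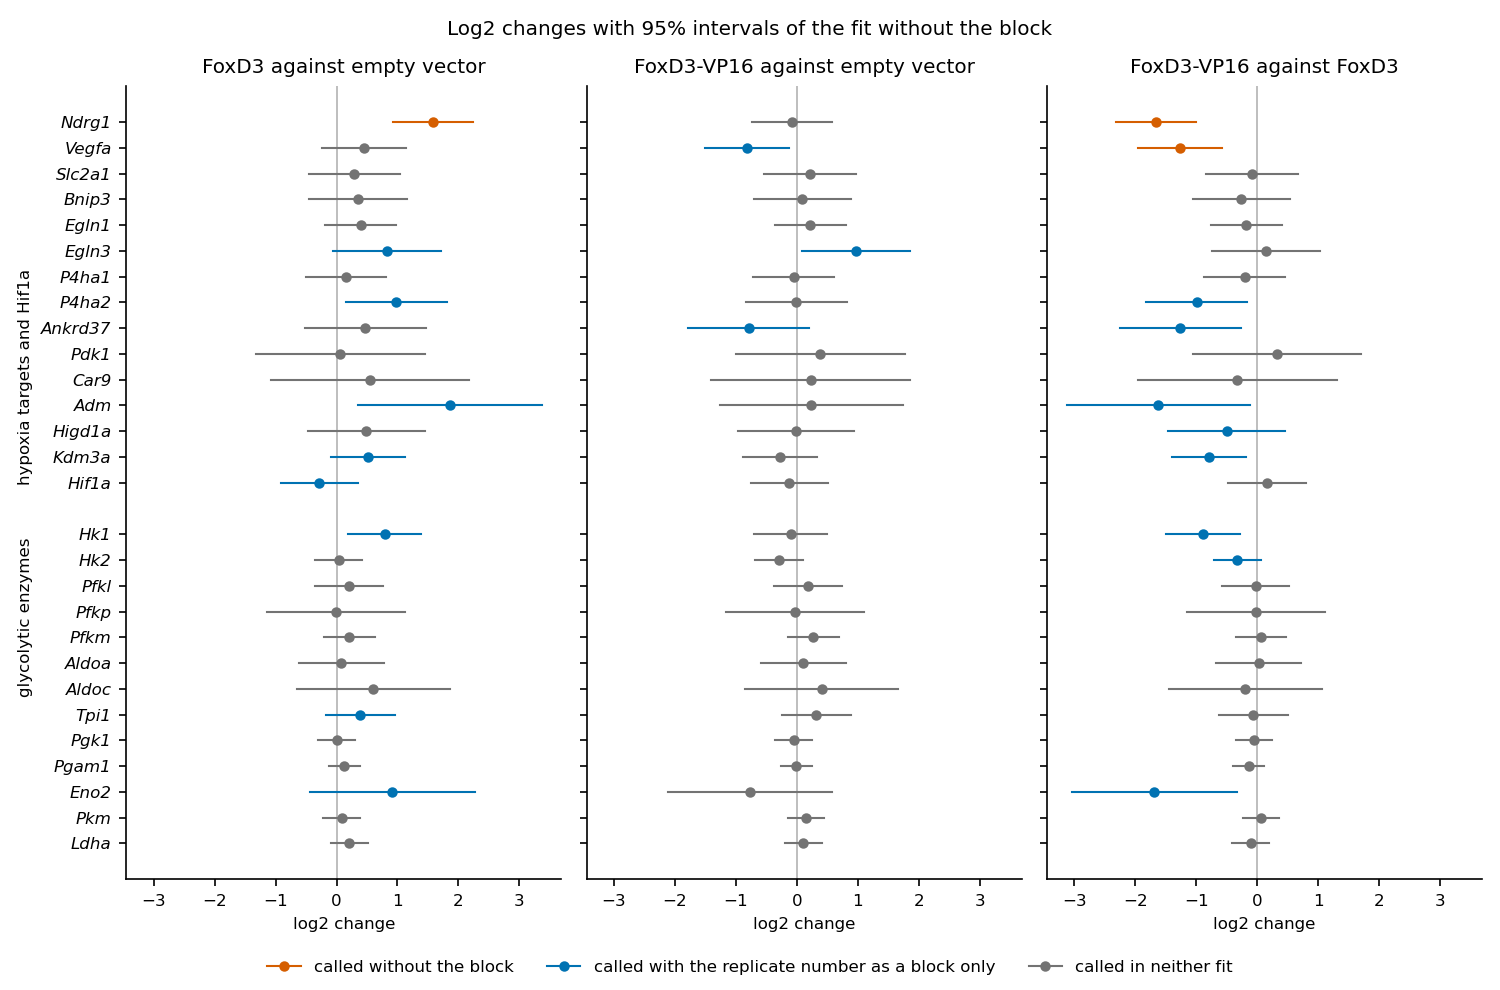
Log2 change of the 28 tested members in the 3 comparisons, with 95% intervals of the fit without the block. Orange members were called without the block (Ndrg1 in 2 comparisons, Vegfa in 1), blue ones only with the replicate number as a block, grey ones by neither.

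Over the list, 1 of 28 members was called higher and 0 lower in FoxD3 cells against the empty vector, where 2.89% of all tested genes were called higher and 1.12% lower. With the block 8 were called higher and 1 lower, where the background was 11.8% higher and 9.21% lower. The groups did not overlap for 1 member, Ndrg1, which was higher, against 6.77% of all genes higher and 4.72% lower. In 4 of 4 pairs 10 members were higher and 1 lower, against 21.1% and 20.1% of all genes. The median log2 change was 0.21 for the enzymes and 0.47 for the HIF group, against -0.004 for all tested genes, and 26 of the 28 members had a positive change.

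That shift was largest on the arrays numbered 3, of which the empty-vector one was low in many members, and next largest on those numbered 1. Within pairs 1 to 4 the members' median difference from the empty vector was 0.39, 0.08, 0.69 and 0.07. Without the arrays numbered 3 the median over all 28 was 0.10, against 0.37 with them, and 21 members were positive. Apart by group, the median without them was 0.30 for the HIF group (12 of 15 positive) and 0.07 for the enzymes (9 of 13 positive). Within pairs 1 to 4 it was 0.56, 0.18, 0.99 and 0.16 for the HIF group. For the enzymes it was 0.215, 0.0, 0.41 and 0.05.

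With FoxD3-VP16 against the empty vector, limma without the block called 0 of 28 members, where 0.522% of all genes were called higher and 0.0733% lower. At an unadjusted p under 0.05, Egln3 was higher and Vegfa lower. With the block 1 was called higher and 2 lower (Egln3, Vegfa and Ankrd37), against 5.73% and 5.41% of all genes. The members' median was 0.04 with all arrays and -0.16 without those numbered 3, when 6 of 28 were positive, so its direction turned with that number. The groups overlapped for all 28 members, while they did not for 3.27% of all genes (higher) and 2.44% (lower). Within pairs 1 to 4 the members' median was -0.09, -0.23, 0.65 and -0.20.

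With FoxD3-VP16 against FoxD3, 2 members were called lower and 0 higher, where 5.13% of all genes were called lower and 4.44% higher. With the block 10 were called lower and 0 higher, against 17.5% and 14.6% of all genes. These were Ndrg1, Vegfa, Adm, P4ha2, Kdm3a, Ankrd37, Higd1a, Hk1, Hk2 and Eno2. The groups did not overlap for Ndrg1 and Eno2, both lower, against 10.1% of all genes lower and 8.05% higher. In 4 of 4 pairs 14 members were lower and 1 higher (Pdk1), against 27.2% and 23.6% of all genes. The median was -0.33 for the HIF group and -0.07 for the enzymes, against -0.03 for all genes. For the HIF group it was -0.55, -0.20, -0.26 and -0.43 within pairs 1 to 4, and -0.53 without the arrays numbered 3. For the enzymes it was -0.20, -0.11, 0.10 and -0.14 within pairs 1 to 4, so its sign turned in pair 3, and it was -0.01 without the arrays numbered 1 and -0.13 without those numbered 3. Any pair of these comparisons shares the 4 arrays of one group, so their counts are not independent.

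**Figure D4:**
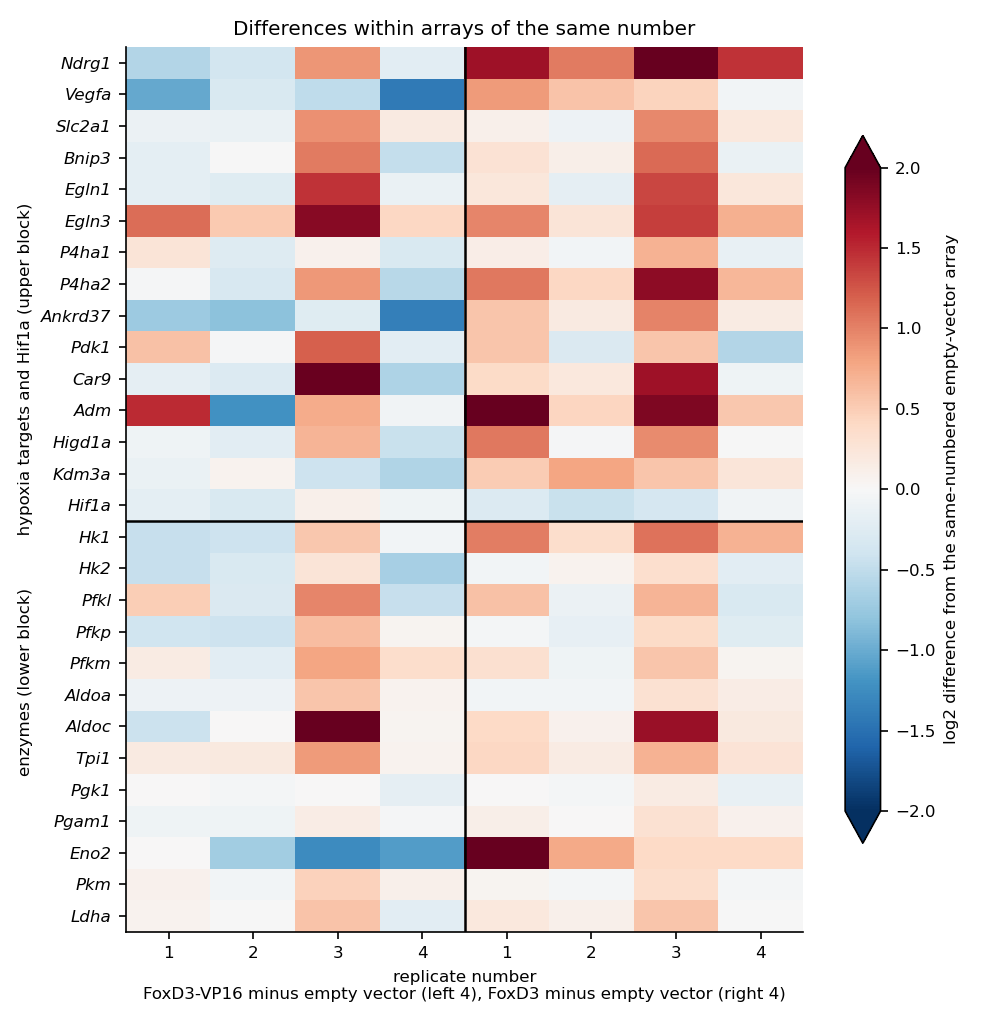
Difference in level (log2) from the empty-vector array of the same number for each member, FoxD3-VP16 in the 4 columns on the left and FoxD3 in the 4 on the right. The colour scale ends at 2 in either direction. In the columns numbered 3, 24 of 28 members with FoxD3-VP16 and 27 of 28 with FoxD3 are higher than the empty vector.

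The members varied more with the replicate number than with the vector. The number took up a median of 60.0% of a member's variance over the 12 arrays and the vector 17.0%, against 49.0% and 22.2% over all tested genes. The share of the number was the larger for 24 of 28 members, and for 7243 of all 10916 tested genes. The number has more levels than the vector, so it takes up more variance also by chance. Among the members the exceptions were Hk1, Ndrg1, Vegfa and Adm. Pfkp was at the other end, with 93.8% for the number.

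On the arrays numbered 1, 16 of the 28 members had their lowest level in every group (57.1%), as against 23.3% of all tested genes. The difference of number 1 from the mean of the other numbers was -2.33 for Car9, -1.95 for Eno2, -1.91 for Pdk1 and -1.70 for Pfkp. Hif1a was higher there by 0.93, and Vegfa and Ndrg1 by 0.17 and 0.05. Hif1a was the only member with its highest level there in every group, as had 20.3% of all tested genes. The arrays numbered 1 are also those with the high Gapdh 3′ minus 5′ difference, the high 18S signal and the highest hybridization controls. The part of RNA quality or of hybridization in these levels was not tested.

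**Figure D5:**
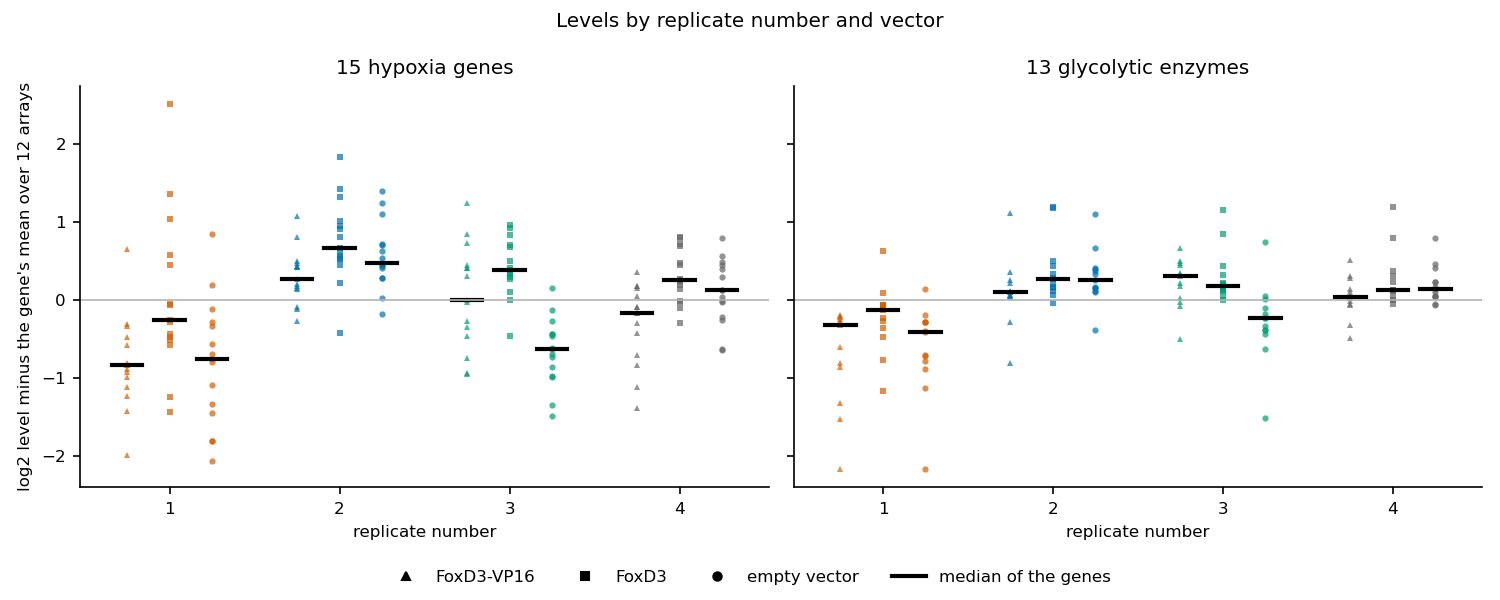
Level of each member minus its own mean over the 12 arrays (log2), by replicate number, for 15 hypoxia genes on the left and 13 enzymes on the right. Points are genes, their shape gives the vector, and black bars are medians over the genes. All 3 medians lie below 0 on the arrays numbered 1, and the empty-vector median also on those numbered 3. Among the hypoxia genes the FoxD3-VP16 median on the arrays numbered 4 is below 0 as well.

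Related genes from lists outside the 28 were counted in the same fits. The share of all tested genes called without the block, against which these counts stand, was 2.89% higher and 1.12% lower for FoxD3 against the empty vector, 0.522% and 0.0733% for FoxD3-VP16 against the empty vector, and 4.44% and 5.13% for FoxD3-VP16 against FoxD3. Of 16 tested genes of the HIF machinery, 2 rose and 1 fell with FoxD3 against the empty vector. Cited2, which competes with HIFs for shared coactivators, stood at 13.89, 13.47, 13.52 and 13.67 with FoxD3-VP16, 11.88, 11.24, 11.38 and 11.33 with FoxD3, and 13.04, 12.43, 12.78 and 12.89 with the empty vector. The 3 groups did not overlap at all. It fell with FoxD3 against the empty vector (log2 change -1.33, adjusted p = 0.000990), was higher with FoxD3-VP16 than with the empty vector (0.85, adjusted p = 0.0478), and differed between the proteins by 2.18 (FoxD3-VP16 minus FoxD3, adjusted p = 1.52e-05).

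Epas1, which encodes the alpha subunit of another HIF, rose with FoxD3 against the empty vector (log2 change 1.02, adjusted p = 0.0156). Vhl, of the ligase that removes the alpha subunits, also rose with FoxD3 (0.79, adjusted p = 0.00483) and was lower with FoxD3-VP16 than with FoxD3 (-0.82, adjusted p = 0.00187). With FoxD3-VP16 against FoxD3 the machinery had 1 gene higher, Cited2, and 1 lower, Vhl. With FoxD3-VP16 against the empty vector Cited2 alone was called without the block. Epas1 averaged 9.92 with FoxD3-VP16, 10.28 with FoxD3 and 9.26 with the empty vector. With the block, 3 machinery genes were higher and 2 lower for FoxD3 against the empty vector (11.8% and 9.21% of all genes). For FoxD3-VP16 the blocked counts were 3 and 1 against the empty vector (5.73% and 5.41%), and 2 and 2 against FoxD3 (14.6% and 17.5%).

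Of 27 other HIF targets tested, 1 rose with FoxD3 against the empty vector, the repressor Bhlhe40 (log2 change 1.15, adjusted p = 0.0151). It was lower with FoxD3-VP16 than with FoxD3 (-2.01, adjusted p = 0.000211), as was the transferrin receptor Tfrc (-0.42, adjusted p = 0.0316), whereas Mxi1, a MYC antagonist, was higher (0.92, adjusted p = 0.0211). Against the empty vector 0 of the 27 were called with FoxD3-VP16 by limma without the block. At an unadjusted p under 0.05, 2 were higher and 1 lower (5.51% and 4.84% of all genes), and with the block 2 and 2 (5.73% and 5.41%). For FoxD3 against the empty vector the block gave 3 higher and 0 lower (11.8% and 9.21% of all genes). For FoxD3-VP16 against FoxD3 it gave 3 higher and 6 lower (14.6% and 17.5%).

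Of 13 other genes of glycolysis and its regulation, 2 rose with FoxD3 against the empty vector. They were Eno3, the muscle enolase (log2 change 1.29, adjusted p = 0.00818), and Pfkfb4, which sets the level of a sugar phosphate that activates phosphofructokinase (0.91, adjusted p = 0.0414). With FoxD3-VP16 against FoxD3, 4 were lower, Eno3 (-1.26, adjusted p = 0.00498), Pfkfb4 (-0.95, 0.0190), Pfkfb2 (-0.85, 0.0283) and the lactate transporter Slc16a1 (-0.47, 0.0493), and 1 was higher, Bpgm (0.88, 0.0444). With FoxD3-VP16 against the empty vector 0 of the 13 were called, with 2 higher and 1 lower at an unadjusted p under 0.05 and 2 and 0 with the block, beside the same shares of all genes. For FoxD3 against the empty vector the block gave 3 higher and 0 lower (11.8% and 9.21% of all genes). For FoxD3-VP16 against FoxD3 it gave 2 higher and 4 lower (14.6% and 17.5%).

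Of 10 genes of mitochondrial pyruvate use and 6 of the pentose phosphate pathway, 0 were called in any comparison by limma without the block. At an unadjusted p under 0.05 there were 2 and 1, all higher with FoxD3-VP16 than with FoxD3, as were 10.5% of all genes. With the block, which called 14.6% of all genes higher and 17.5% lower there, 1 pyruvate gene was higher and 1 lower in that comparison, and 1 pentose gene higher and 2 lower, among them the dehydrogenase Pgd (log2 change 0.46) and the isomerase Rpia (-0.60). With the block, Pgd (0.27) and Rpia (-0.46) were also called between FoxD3-VP16 and the empty vector.

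In the NDRG family, Ndrg4 was called in the same 2 comparisons as Ndrg1 and in the same directions. It was 3.59-fold higher with FoxD3 than with the empty vector (log2 change 1.84, adjusted p = 0.000266) and 3.15-fold lower with FoxD3-VP16 than with FoxD3 (-1.66, adjusted p = 0.000209). Its levels were 10.51, 10.45, 10.96 and 10.92 with FoxD3-VP16, 12.74, 11.96, 12.35 and 12.41 with FoxD3, and 10.38, 10.44, 10.39 and 10.88 with the empty vector, and all FoxD3 arrays were above all others. Ndrg2 gave 1.21 with FoxD3 against the empty vector, which was called with the block only (adjusted p = 0.146; 0.00660 with the block).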

How the data were processed

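The authors deposited 1 linear intensity per probe set (45101) and array (12). The submitters' processing notes name MAS5, and a label names dChip for their own analysis. Versions are not given in the sources used here. RNA was taken with Trizol and amplified with biotin labelling, per the labels' protocols.

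From these deposited intensities log2(intensity + 16) was computed and quantile normalized, because array medians spanned 0.79 (limit 0.5). The 64 control probe sets were left out. Symbols came from the platform annotation, which can be old: 34945 probe sets had 1 symbol, 932 several and 9160 none, and the last 2 kinds were not used. The brightest probe set per gene gave 18193 genes, and the lowest 40% by mean (below 5.98) were left out. The 3 comparisons were fitted with limma 3.58.1 in R 4.3.3 (lmFit, eBayes with trend) over all 12 arrays, with Benjamini-Hochberg adjustment over 10916 genes and 9 residual degrees of freedom. The calculation was tested on simulated data. Python 3.11.15 with matplotlib 3.10.9 drew the plots.

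Replicate numbers, shared by the 3 groups in the sample titles, pair the samples: deviations from group means correlated at 0.37 to 0.67 in all 12 same-numbered pairs, although arrays numbered 3 and 4 correlated with each other across groups as strongly (0.37 to 0.54), so these 2 numbers are not told apart, and the labels do not say what a number shares. A fit with that number as block (6 residual degrees of freedom) therefore stands beside a result where it changes the call.

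The members and lists were chosen with earlier results of these data known. Every member is accounted for. Those called by either fit are given on every array, and Ndrg1, Vegfa, Slc2a1, Pgk1, Ldha, Hk2, Bnip3, Pdk1, Car9, Egln3 and Hif1a in any case with values; of each related list up to 4 called genes per comparison are named. Alternatives changed the pseudocount, the normalization, the filter, the choice of probe sets, array weights, the arrays fitted and the block. The number of arrays limits the precision.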

Additional observations from a re-analysis of the deposited data

Results flagged for a closer look

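In 13 of 84 groups of 4 arrays, 1 array lay farther from its neighbours than Dixon's 95% limit allows, where chance alone gives about 1 in 20 groups. In all 13 it was the array numbered 1, below the others in 12 and above them in 1. Eno2 was such a case in every group, at 6.55 with FoxD3-VP16 (others 8.22 to 8.44), 8.65 with FoxD3 (9.87 to 9.91) and 6.55 with the empty vector (9.14 to 9.51). With FoxD3 the low values were 11.23 for Pfkp (others 12.62 to 12.89), 13.80 for Aldoa (14.77 to 14.94), 14.17 for Tpi1 (14.84 to 14.87) and 13.74 for Pgam1 (13.93 to 13.96). Also low there were Egln3 at 6.31 (others 7.19 to 7.31), P4ha2 at 10.63 (11.47 to 11.62), Car9 at 8.16 (10.31 to 10.56) and Kdm3a at 12.01 (12.87 to 12.98). With FoxD3-VP16, Pgk1 was low at 14.66 (others 14.97 to 14.998). Hif1a was the one high case, at 13.73 with FoxD3 (others 12.68 to 12.85). Genes on the same arrays are not independent, so these are not 13 separate events.

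Ndrg1 and Vegfa differed between the 2 proteins in the direct test of FoxD3-VP16 against FoxD3 (limma, log2 changes -1.66 and -1.26, adjusted p = 0.00398 and 0.0254, both lower in 4 of 4 pairs).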

How the results depend on the processing

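No member called by the fit without or with the block changed direction, in the comparison where it was called, in any of the 31 alternatives, 8 of which, added after seeing the data, joined the replicate block with another choice. Ndrg1 was called in all of them for FoxD3 against the empty vector (1.31 to 1.85, adjusted p up to 0.0450) and for FoxD3-VP16 against FoxD3 (-1.84 to -1.43, up to 0.0224). Vegfa was called in 25 of 31 for FoxD3-VP16 against FoxD3 (-1.54 to -1.01), and beside the single arrays named above it was lost with median centring (-1.33, adjusted p = 0.0574) and without the arrays numbered 1 (-1.07, 0.0808).

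The replicate block moved the count of called members from 1 to 9 for FoxD3 against the empty vector, 0 to 3 for FoxD3-VP16 against the empty vector and 2 to 10 for FoxD3-VP16 against FoxD3. It also raised the calls over all 10916 genes. For FoxD3 against the empty vector they went from 316 higher and 122 lower to 1292 and 1005. For FoxD3-VP16 they went from 57 and 8 to 626 and 591 against the empty vector, and from 485 and 560 to 1592 and 1906 against FoxD3. With the block but without the arrays numbered 1, 2, 3 or 4, the counts were 5, 8, 7 and 8 for FoxD3 against the empty vector, 3, 2, 2 and 0 for FoxD3-VP16 against the empty vector, and 8, 8, 12 and 8 for FoxD3-VP16 against FoxD3. The next counts are in the same order of comparisons. With the block on values as deposited they were 9, 3 and 10, on the mean of all probe sets 7, 3 and 9, at a pseudocount of 1 8, 3 and 9, and with no filter 8, 1 and 8. Array quality weights gave 8, 5 and 7, the highest of the alternatives for FoxD3-VP16 against the empty vector. Over all 10916 genes these weights called 2160 higher and 2033 lower, 1660 and 1805, and 2022 and 2433, in the same order of comparisons. The 5 members called with them for FoxD3-VP16 against the empty vector were Egln3, Eno2, Kdm3a, Pfkm (0.41, adjusted p = 0.0192) and Vegfa. The weights also called Slc2a1 for FoxD3 against the empty vector (0.42, 0.0379). Bnip3 and Car9 were called for FoxD3-VP16 against FoxD3 in 1 alternative, with the block but without the arrays numbered 3 (-0.33 and -0.53), and with single arrays left out ranged from -0.49 to 0.05 and -0.90 to 0.33, turning without FoxD3-VP16 array 1 (0.05 and 0.33, not called). Without the block, the mean of all probe sets added Higd1a to the calls of FoxD3 against the empty vector (2) and of FoxD3-VP16 against FoxD3 (3), and fitting only the 2 groups compared added Eno2 to those of FoxD3-VP16 against FoxD3 (3). Without the arrays numbered 1 the counts were 2 (Ndrg1 and Kdm3a), 1 (Eno2) and 3 (Ndrg1, Eno2 and Kdm3a). Median centring left 1 for FoxD3-VP16 against FoxD3. With single arrays left out the counts ranged from 1 to 2 (Adm joining without empty-vector array 2), stayed at 0, and ranged from 1 to 3, where without FoxD3-VP16 array 4 Ndrg1 alone was called. For FoxD3-VP16 against FoxD3, Kdm3a was called without FoxD3 array 1 (-1.01, adjusted p = 0.0315) and Eno2 without empty-vector array 1 (-1.70, 0.0223). Over all genes, median centring moved the split for FoxD3 against the empty vector to 166 higher and 21 lower, against 316 and 122. The cause of these shifts was not tested. Levels of dim genes such as Egln3 lie close to the background, which limits what their changes can show.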
